A study of Mus musculus with 9 samples.

Results

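The proteasome is the protease that degrades ubiquitin-tagged proteins. Its 20S core holds alpha rings around beta rings, and the beta rings carry the catalytic subunits. The 19S regulatory particle caps the core: its base contains a ring of ATPases that unfolds substrates, and its lid removes ubiquitin. In lymphocytes the constitutive catalytic subunits Psmb5, Psmb6 and Psmb7 can be replaced by the immunoproteasome subunits Psmb8, Psmb9 and Psmb10, which are induced by interferon-gamma and favour peptides for presentation on MHC class I.

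The genes described here are the rows of the count table whose NCBI Gene number maps to a mouse symbol that begins with Psm, one letter from a to g and a digit. The rule found 50 of 27179 rows: 8 alpha subunits of the 20S core, 7 constitutive beta subunits, 4 immunoproteasome or thymoproteasome beta subunits, 6 ATPases and 3 other subunits of the 19S base, 8 lid subunits, 4 activators, 7 assembly chaperones, 1 inhibitor and 2 genes that match the pattern by name only. The last are Psmc3ip, a partner of the meiotic recombinases, and Psme3ip1, a protein that binds the activator Psme3. The filter on low counts kept 48 genes. It left out the testis form of an alpha subunit, Psma8, and the thymus form of a beta subunit, Psmb11. Psma8 lay between 0.0531 and 0.408 CPM (counts scaled to the library total after adjustment by TMM factors) over the 9 libraries, and Psmb11 reached at most 0.151 CPM, in an input library.

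The RNA came from wild-type mouse spleen. CD43- B cells were activated for 72 h with, by the labels, CD40L (5 ug/mL), anti-IgM antibody (10 ug/mL) and IL-4 (20 ng/mL); the methods section lists anti-CD40 antibody in place of the ligand. RNA immunoprecipitation sequencing (RIP-seq) compared 3 libraries of the lysate (input), 3 of RNA precipitated with normal rabbit IgG and 3 of RNA brought down by an antibody that recognises phosphorylated UPF1 (p-UPF1). UPF1, an RNA helicase, drives nonsense-mediated mRNA decay (NMD). Once phosphorylated, it recruits decay factors to the mRNA. All groups share the genotype and the stimulation, so the comparisons ask which proteasome mRNAs were over- or under-represented in the p-UPF1 precipitate.

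The libraries held 17372510 to 24945286 counts. B cell markers summed to 8960 to 9101 CPM in input. The sums were 5077 to 5111 CPM after IgG precipitation and 3001 to 3072 CPM after p-UPF1 precipitation; their part in the results below was not tested. T cell markers summed to at most 0.917 CPM and erythroid markers to at most 0.858 CPM, with Hba-a1 and Hbb-bs at 0. The 5 myeloid markers summed to 127.5 to 139.1 CPM in input, to 86.0 to 91.5 CPM with IgG and to 57.2 to 59.4 CPM with p-UPF1, nearly all of it Adgre1. CPM are relative to the other RNA of a library. In bulk RNA a low marker level does not tell few cells of a type from little RNA per cell. Per the methods, input and precipitates were taken from the same lysate, but the labels do not say which libraries share one. Whether cell number bears on their differences was not tested. The methods call the study's replicates independent biological ones in general, without saying which mice or cultures these 9 libraries came from, so p-values measure only the spread between them.

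Terminating ribosomes meet UPF1 at the stop codon, and the 3′ UTR that follows is one of the features that NMD reads. The stop codon and its neighbourhood are therefore shown for the 3 catalytic pairs and for the genes at the ends of the range described below. The sequences are the RefSeq mRNAs on GRCm38, 12 coding bases, the stop codon in capitals and the first 12 bases of the 3′ UTR, each uninterrupted in the genome.
Psmb5 (chr14:54614180-54614206, minus strand, 3′ UTR of 72 bases): gtatctgtccccTGAgggaaggtggat
Psmb8 (chr17:34201252-34201278, plus strand, 188 bases): gaggccgctctgTGAtggctgctgggc
Psmb6 (chr11:70527565-70527591, plus strand, 279 bases): ttgccacctcccTGAggcctggtgttc
Psmb9 (chr17:34182212-34182238, minus strand, 125 bases): ttctacgatgagTGActgatccccaga
Psmb7 (chr2:38588165-38588191, minus strand, 131 bases): atggatacttcgTGAatggtgctgtgg
Psmb10 (chr8:105935782-105935808, minus strand, 66 bases): atggaggtggaaTGAagtggcctgaga
Psmb1 (chr17:15476008-15476034, minus strand, 299 bases): ctgcggaaagacTGAcatgcgggtcat
Psmg4 (chr13:34178088-34178114, plus strand, 70 bases): ccggaaaagttcTGAgcagcagaagga
Psmd7 (chr8:107580872-107580898, minus strand, 504 bases): aaggagaaaaagTAAatggtgtagctt
Psmf1 (chr2:151718622-151718648, minus strand, 2572 bases): gacatgtacctgTGAaggcctcaagaa
The catalytic subunits, Psmb1, Psmg4 and Psmf1 end in TGA and Psmd7 in TAA. Among the 48 tested genes, 31 end in TGA (64.6%), 9 in TAA and 8 in TAG; of 11895 tested genes with a RefSeq mRNA, 51.7% end in TGA.

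Most proteasome mRNAs were scarcer in the p-UPF1 precipitate than in both controls. The proteasome genes together held 0.736% ± 0.00799 (SD, n = 3) of all counts in input, 0.667% ± 0.010 after IgG precipitation and 0.251% ± 0.00404 after p-UPF1 precipitation. Against IgG, 42 of the 48 tested genes were lower and 5 were higher at an adjusted p under 0.05 (edgeR quasi-likelihood test, Benjamini-Hochberg over 13129 genes); over all genes 42.2% were lower and 40.4% higher. Against input, 43 were lower and 5 were higher, where 42.6% and 40.8% of all genes were. The median log2 difference of the 48 genes was -1.64 over IgG and -1.81 over input, beside -0.03 and -0.03 for all tested genes. Over IgG, 36 of the 48 lay at or below -1 and 13 at or below -2, and 1 lay at or above 1. Among all 13129 tested genes, 2913 lay at or below -1, 855 at or below -2 and 2960 at or above 1. Both contrasts use the same 3 p-UPF1 libraries, so their values stand side by side and are no independent pair of measurements.

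**Figure D1:**
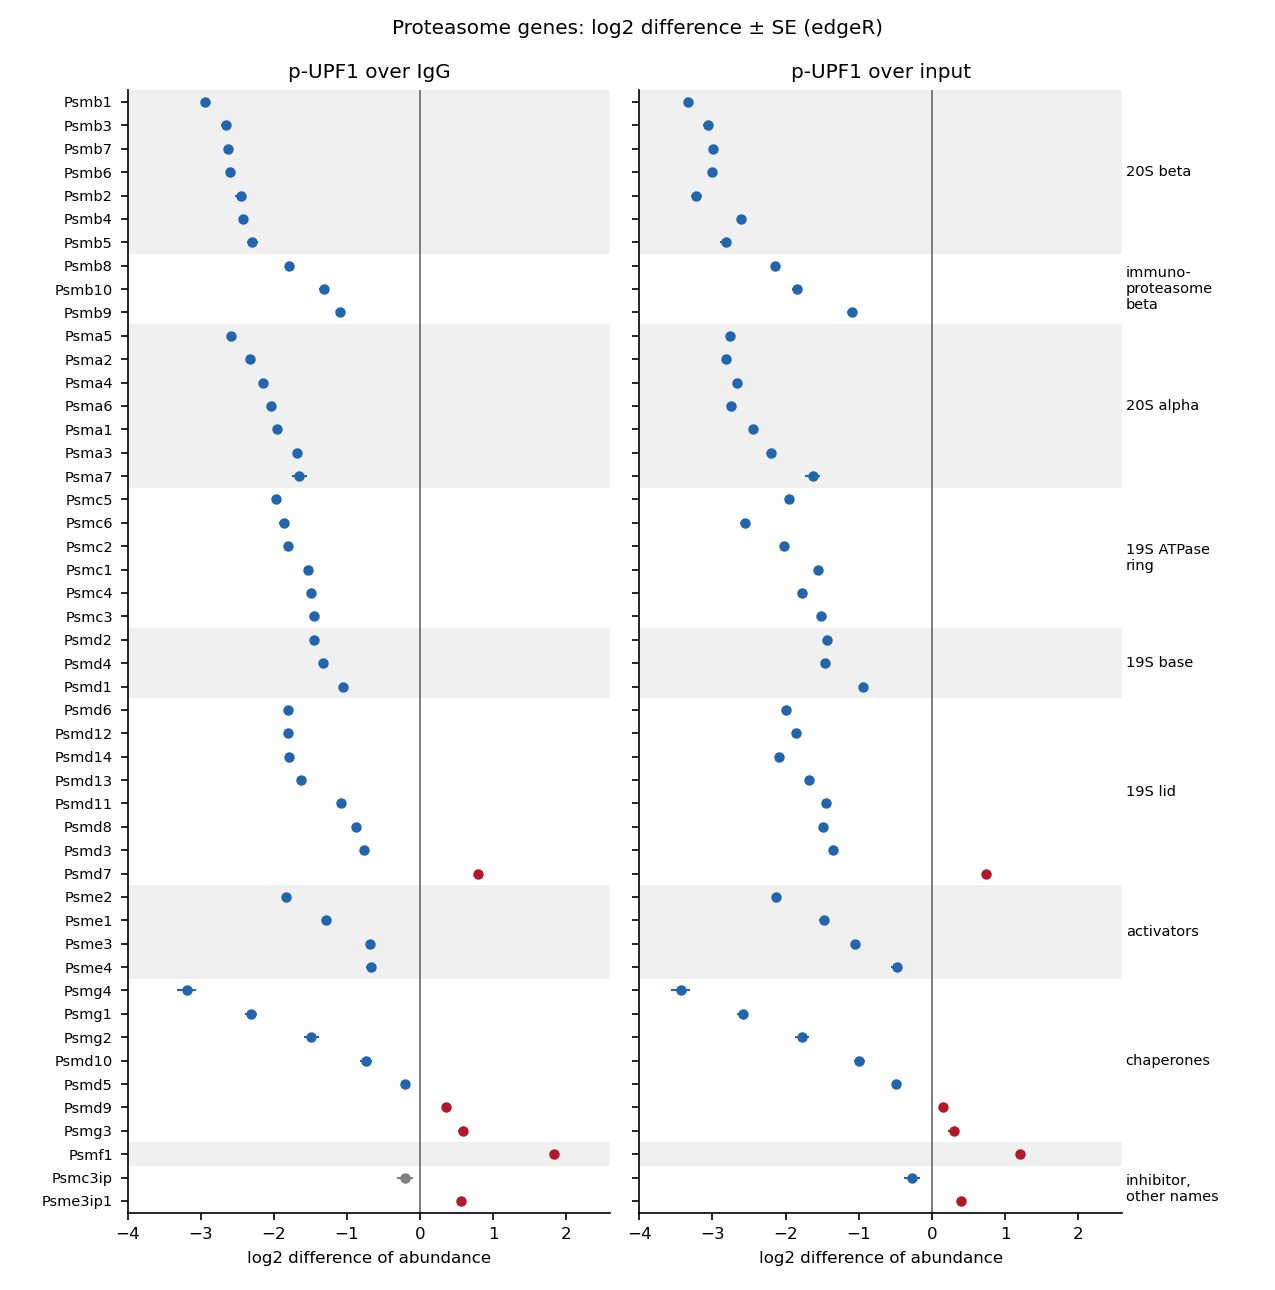
Log2 difference with its SE (edgeR) for the 48 tested proteasome genes, p-UPF1 over IgG on the left and p-UPF1 over input on the right, ordered by subunit group; blue points were lower, red points higher and grey points not called at an adjusted p under 0.05. The constitutive 20S beta subunits lie between -2.94 and -2.29 over IgG, and Psmf1 lies farthest to the right at 1.82.

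The 7 constitutive beta subunits were the group with the lowest median, -2.59 with IgG as the reference and -3.0 with input, and all 7 were lower in both contrasts. Psmb1, a non-catalytic beta subunit, read 273, 276 and 267 CPM in input, 207, 206 and 213 CPM in IgG and 26.5, 26.6 and 28.2 CPM in p-UPF1 libraries. The p-UPF1 libraries were far below both other groups, which did not overlap either. Its log2 difference was -2.94 (SE 0.05) over IgG and -3.33 (SE 0.05) over input, with edgeR adjusted p of 6.54e-18 and 1.1e-18. The other non-catalytic members lay at -2.65 (Psmb3), -2.45 (Psmb2) and -2.42 (Psmb4) over IgG. Over input the lowest of these was Psmb2 at -3.22.

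The 3 constitutive catalytic subunits showed the same direction. Psmb5, which carries the chymotrypsin-like activity, read 60.5, 59.6 and 60.3 CPM in input, 43.3, 42.0 and 39.9 CPM in IgG and 7.37, 9.12 and 9.11 CPM in p-UPF1 libraries. Its log2 difference over IgG, -2.29 (SE 0.08, edgeR adjusted p = 5.32e-14), was the highest of the 7. Psmb6, with the caspase-like activity, read 180, 185 and 182 CPM in input, 142, 134 and 135 in IgG and 24.0, 20.8 and 23.3 in p-UPF1 libraries, a log2 difference over IgG of -2.59 (SE 0.05). Psmb7, with the trypsin-like activity, read 178, 185 and 181 CPM in input, 135, 143 and 145 in IgG and 21.4, 23.7 and 23.4 in p-UPF1 libraries, a log2 difference of -2.63 (SE 0.05). In each of the 3 genes the groups did not overlap, with input highest and p-UPF1 lowest. The share of all tested genes whose 3 groups separate fully was not computed, here or for the other genes described. Calls of lower were common among all tested genes (edgeR, adjusted p under 0.05). They made up 42.2% for p-UPF1 over IgG and 34.7% for IgG over input. A microRNA gene, Mir686, lies on the same strand within Psmb5.

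The immunoproteasome subunits were also lower in p-UPF1 libraries, and their median was -1.32 relative to IgG and -1.84 relative to input. Psmb8 (chr17:34198195-34201454) and Psmb9 (chr17:34182030-34187330) lie close together in the MHC class II region. Psmb8, the counterpart of Psmb5, read 219, 217 and 216 CPM in input, 178, 166 and 169 in IgG and 47.9, 49.7 and 50.2 in p-UPF1 libraries. Its log2 difference over IgG was -1.79 (SE 0.04, edgeR adjusted p = 9.27e-16). Psmb9, the counterpart of Psmb6, read 89.3, 79.3 and 82.7 CPM in input, 89.5, 82.2 and 79.1 in IgG and 41.0, 39.5 and 37.2 in p-UPF1 libraries. Input and IgG overlapped for Psmb9, and the p-UPF1 libraries lay below both, at -1.09 (SE 0.06) over IgG. Psmb10, the counterpart of Psmb7, read 45.8, 48.4 and 46.4 CPM in input, 32.5, 32.7 and 32.3 in IgG and 12.4, 13.0 and 13.8 in p-UPF1 libraries, a log2 difference of -1.32 (SE 0.07).

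**Figure D2:**
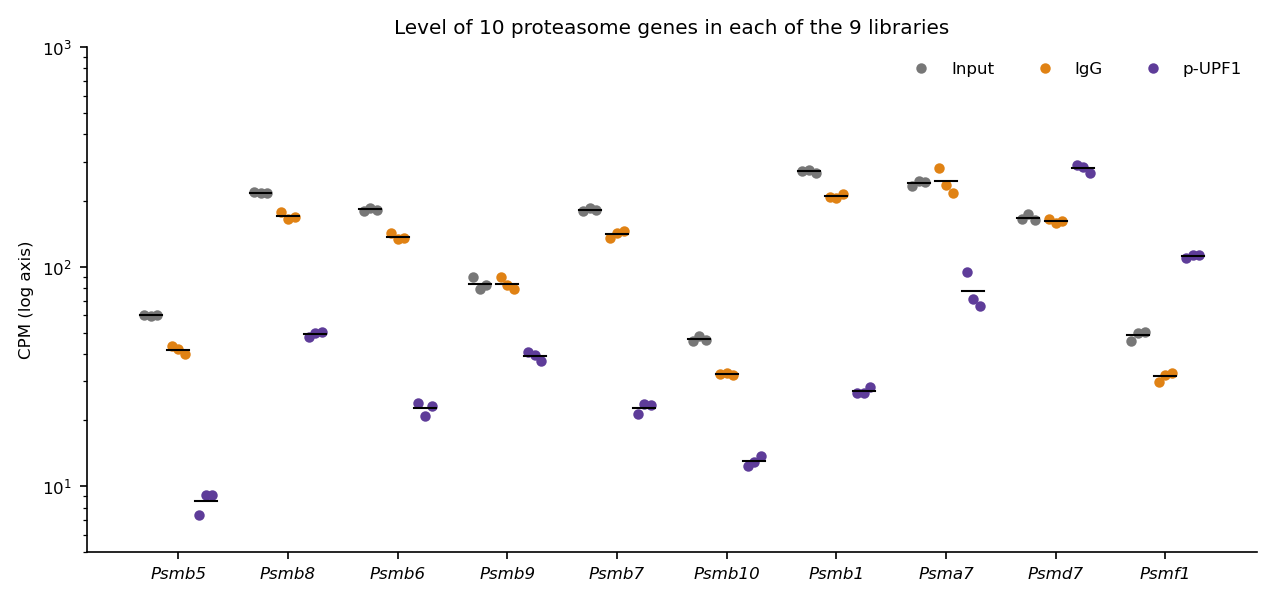
CPM of 10 proteasome genes in each of the 9 libraries on a log axis; points are libraries (A, B and C from left to right) and bars are group means. The p-UPF1 libraries lie lowest for the first 8 genes, while for Psmd7 (267 to 290 CPM) and Psmf1 (110 to 113 CPM) they lie highest.

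Within each catalytic pair the ratio of the immunoproteasome subunit to the constitutive one was higher in every p-UPF1 library than in any input or IgG library, although Psmb10 stayed below Psmb7. Per kilobase of exon, the input level was 178 ± 1.42 CPM for Psmb8 and 69.0 ± 0.512 for Psmb5, 104 ± 6.29 for Psmb9 and 176 ± 2.88 for Psmb6, and 36.9 ± 1.08 for Psmb10 and 187 ± 3.39 for Psmb7 (SD, n = 3). The log2 ratio of Psmb9 to Psmb6, in CPM, was -1.01, -1.23 and -1.13 in input, -0.67, -0.70 and -0.77 in IgG and 0.78, 0.92 and 0.67 in p-UPF1 libraries, so it changed sign in the precipitate. Its difference between p-UPF1 and IgG was 1.51. The ratio of Psmb10 to Psmb7 was -2.12 ± 0.06 in IgG and -0.81 ± 0.06 in p-UPF1 libraries, a difference of 1.31. The ratio of Psmb8 to Psmb5 was 2.03 ± 0.05 in IgG and 2.54 ± 0.14 in p-UPF1 libraries, a difference of 0.50. Over input the differences were 1.91, 1.15 and 0.68 in the same order.

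In none of the 3 pairs did the p-UPF1 libraries overlap the others. Ratios of other gene pairs were not computed, so how often such a separation occurs by pair is not known. A two-sided exact permutation test of 3 against 3 libraries gave p = 0.1 for each of the 9 comparisons of a ratio, adjusted p = 0.1, which is the smallest value the design allows. The counting of more reads on a longer gene sets the level of a ratio and cancels in its difference between groups. Whether length bears on recovery in the precipitate was not tested. Leaving out 1 library at a time kept the p-UPF1 to IgG differences at 1.44 to 1.56, 1.28 to 1.34 and 0.42 to 0.55. Between IgG and input the ratios moved less, by 0.41 for Psmb9 to Psmb6, -0.16 for Psmb10 to Psmb7 and 0.18 for Psmb8 to Psmb5.

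**Figure D3:**
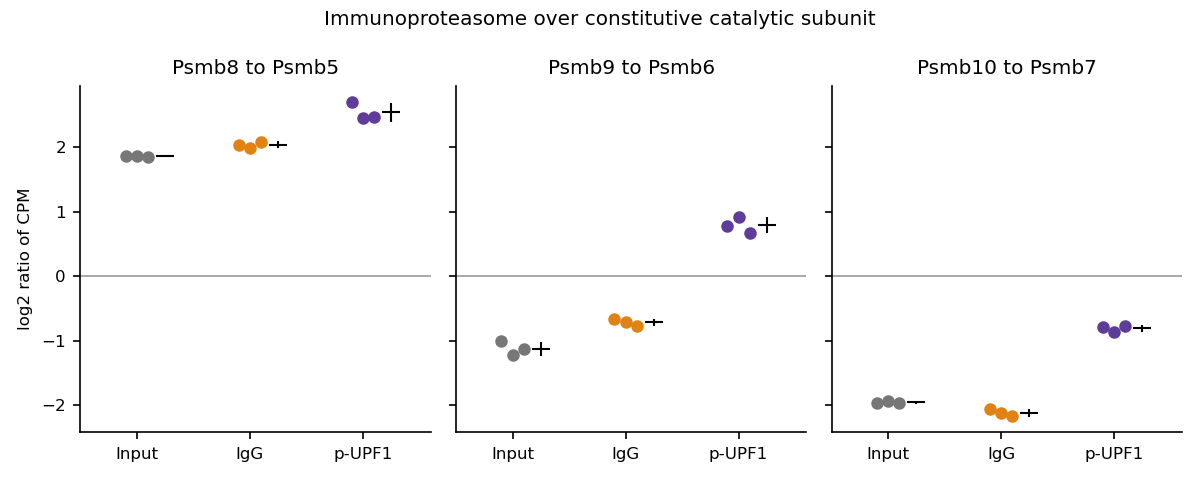
Log2 ratio of the CPM of each immunoproteasome subunit to its constitutive counterpart, by library, for input, IgG and p-UPF1; points are libraries and the bar beside them is the mean with its SD (n = 3). The p-UPF1 points lie above the other groups in all 3 pairs, with means of 2.54, 0.79 and -0.81 from left to right.

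The alpha subunits form the outer rings of the core and gate its entrance. All 7 tested alpha genes were lower in p-UPF1 libraries in both contrasts, and their median was -2.04 relative to IgG and -2.66 relative to input. Psma5 was the lowest over IgG, with 123, 126 and 122 CPM in input, 107, 114 and 110 in IgG and 17.3, 18.9 and 18.7 in p-UPF1 libraries, a log2 difference of -2.59 (SE 0.05, edgeR adjusted p = 1.04e-16). Over input the lowest was Psma2, at -2.82 (SE 0.05). Psma7 was the highest in both contrasts and the most variable. It read 233, 246 and 242 CPM in input, 280, 235 and 217 in IgG and 94.7, 71.6 and 66.5 in p-UPF1 libraries. The p-UPF1 libraries stayed below the others, at -1.65 (SE 0.11) over IgG and -1.63 (SE 0.11) over input. Psma3 overlaps 3110056K07Rik and Psma4 overlaps AY074887 on the opposite strand, and whether strand was used in counting is not stated for these libraries.

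Counting the genes with a Psm symbol, the 19S particle was lower by less than the core. The median of its 17 genes was -1.50 relative to IgG and -1.55 relative to input, beside -2.29 and -2.75 for the 17 tested core genes, the immunoproteasome included; the difference between the particles was not tested. All 6 ATPases were lower, from -1.96 for Psmc5 to -1.45 for Psmc3 over IgG. Over input Psmc6 was the lowest ATPase, with 125, 127 and 118 CPM in input and 19.5, 21.5 and 21.8 in p-UPF1 libraries, a log2 difference of -2.56 (SE 0.06). Of the other base subunits, the scaffold Psmd1 lay at -1.05 (SE 0.05) over IgG and -0.94 over input, and the scaffold Psmd2 at -1.45 (SE 0.04) and -1.43. Psmd4, a ubiquitin receptor, lay at -1.32 (SE 0.04) and -1.46.

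The lid held the one subunit of either particle that was higher in the p-UPF1 precipitate. Psmd7 (chr8:107580380-107588482) encodes the partner of the deubiquitinase Psmd14. It read 165, 173 and 163 CPM in input, 165, 158 and 162 in IgG and 290, 283 and 267 in p-UPF1 libraries. The p-UPF1 libraries were above all the others, by 0.79 (SE 0.04, edgeR adjusted p = 2.67e-11) over IgG and 0.75 (SE 0.04, edgeR adjusted p = 5.18e-11) over input. Among all tested genes Psmd7 stood at the 72.7th percentile over IgG and the 71.2th over input. Its direct partner Psmd14 read 179, 183 and 178 CPM in input, 145, 150 and 142 in IgG and 39.5, 45.5 and 41.4 in p-UPF1 libraries, a log2 difference of -1.79 (SE 0.05) over IgG. The other 7 lid genes with a Psm symbol were all lower, from -1.81 for Psmd6 to -0.77 for Psmd3 over IgG. Their median together with Psmd7 was -1.35. The lid subunit Sem1, which has no Psm symbol, lay at -3.10 (SE 0.05) over IgG.

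Outside the particles the genes spread most. The 4 activators, which open the core in place of the 19S cap, were lower, with a median of -0.98 over IgG. Psme2, a subunit of the interferon-induced activator PA28, read 201, 209 and 197 CPM in input, 171, 165 and 158 in IgG and 46.5, 46.0 and 45.9 in p-UPF1 libraries, a log2 difference of -1.84 (SE 0.05). Its partner Psme1 lay at -1.29 (SE 0.06), and the nuclear activator Psme3 at -0.68 (SE 0.04). Psme4, known as PA200, lay at -0.67 (SE 0.07) over IgG and at -0.48 (SE 0.07) over input. Psme1 overlaps Emc9 and Psme4 overlaps Erlec1 on the opposite strand.

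The assembly chaperones ran from the lowest proteasome gene to the higher ones. Psmg4, a partner of Psmg3 in building the alpha ring, read 16.5, 19 and 16.7 CPM in input, 15.9, 14.8 and 13.4 in IgG and 1.77, 1.53 and 1.5 in p-UPF1 libraries. Its log2 difference was -3.19 (SE 0.13, edgeR adjusted p = 9.77e-13) over IgG and -3.43 (SE 0.13) over input, the lowest of the 48 genes in both. Psmg3 went the other way, with 29.6, 26.9 and 27.6 CPM in input, 24.8, 20.6 and 23.7 in IgG and 35.0, 35.3 and 33.3 in p-UPF1 libraries. It was higher by 0.59 (SE 0.07, edgeR adjusted p = 1.52e-06) over IgG and by 0.30 (SE 0.07, edgeR adjusted p = 0.0011) over input. Among all tested genes Psmg3 stood at the 67.5th percentile over IgG and the 59.3th over input. The pair Psmg1 and Psmg2, which also assembles the alpha ring, lay at -2.31 (SE 0.08) and -1.49 (SE 0.10) over IgG.

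Chaperones of the 19S base lay between -0.74 and 0.36 over IgG. Psmd10 lay at -0.74 (SE 0.08) and Psmd5 at -0.21 (SE 0.05) over IgG, and Psmd9 was higher by 0.36 (SE 0.06, edgeR adjusted p = 4.36e-05). Psmd9 read 32.4, 31.0 and 33.0 CPM in input and 35.2, 36.2 and 35.7 in p-UPF1 libraries, a difference of 0.15 (SE 0.06) over input with an edgeR adjusted p of 0.0248. That call over input was lost without p-UPF1 library B (adjusted p = 0.0749) or C (0.0583) and without input library A (0.0710) or B (0.0942). Over all 21 alternatives the adjusted p of Psmd9 over input ran from 0.0002777 to 0.1845. Psmd10 overlaps Atg4a on the opposite strand.

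Psmf1, the proteasome inhibitor PI31, was the most enriched proteasome gene in the p-UPF1 precipitate (chr2:151716062-151744199). It read 45.8, 50.1 and 50.4 CPM in input, 30.0, 32.2 and 32.7 in IgG and 110, 113 and 113 in p-UPF1 libraries. The groups did not overlap, with IgG lowest and p-UPF1 highest. Its log2 difference was 1.82 (SE 0.05, edgeR adjusted p = 9.93e-15) over IgG and 1.20 (SE 0.05, edgeR adjusted p = 1.01e-12) over input. Among all tested genes it stood at the 91.1th percentile over IgG and the 81.6th over input. Psmf1 overlaps Tmem74b on the opposite strand, so reads of that gene may be among its counts if strand was not used.

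By the criterion of the study's methods, which asks for a log2 difference over IgG of 1 or more and over input of 2 or more, both at an adjusted p under 0.05, 6.25% of the tested genes (820 of 13129) were p-UPF1-bound. None of the 48 proteasome genes met it by edgeR, 0 met it at an unadjusted p under 0.05, and 0 met it by DESeq2 or limma-voom. Psmf1 passed the limit over IgG and not the one over input. The genes that match the pattern by name were Psme3ip1, which was higher by 0.56 (SE 0.05) over IgG and 0.41 (SE 0.05) over input, and Psmc3ip. Psmc3ip lay at -0.21 (SE 0.11) over IgG with an edgeR adjusted p of 0.0904, and at -0.27 (SE 0.11) over input with one of 0.0288. The Psmc3ip call over input was lost without p-UPF1 library B (0.0637) or C (0.1130) and without input library A (0.0569) or B (0.0922), and over the 21 alternatives its adjusted p ran from 0.00407 to 0.2851. Over IgG, Psmc3ip was called lower without IgG library A (adjusted p = 0.0129), with a range over the alternatives of 0.00502 to 0.497. Psmc3ip overlaps Mlx on the opposite strand, and LOC115486880 overlaps Psme3ip1 on the same strand.

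The IgG precipitate, which gives the background of the method, differed from input by less. Of the 48 genes, 36 were lower in IgG than in input, 1 was higher and 11 were not called, with a median of -0.28 beside -0.10 for all tested genes; 34.7% of all genes were lower and 18.2% higher (edgeR, adjusted p under 0.05). The lowest were Psmb2 at -0.77 (SE 0.06), Psma6 at -0.70 (SE 0.05), Psmc6 at -0.70 (SE 0.05), Psmf1 at -0.62 (SE 0.06) and Psmd8 at -0.60 (SE 0.04). Psmd8, a lid subunit, read 371, 394 and 364 CPM in input, 248, 250 and 246 in IgG and 139, 138 and 127 in p-UPF1 libraries. The highest were Psme4 at 0.18 (SE 0.07), Psmd1 at 0.10 (SE 0.05), Psmd2 at 0.02 (SE 0.04), Psma7 at 0.02 (SE 0.10) and Psmc5 at 0.01 (SE 0.04).

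Psme4 read 238, 245 and 243 CPM in input and 235, 296 and 294 in IgG libraries, so the groups overlapped. It was called higher with an edgeR adjusted p of 0.0325, and the call was lost without IgG library B (adjusted p = 0.1795) or C (0.1699), without input library A (0.1214), B (0.0817) or C (0.0942) and without p-UPF1 library B (0.0544). Its range over the alternatives was 1.218e-07 to 0.1795. Leaving out 1 library also changed calls of 5 further genes between IgG and input. Psmd1 was called higher without IgG library A (adjusted p = 0.0480) and Psmc3 lower without IgG library B (0.0413). The call was lost for Psmd4 without input library B (0.0685), for Psme3ip1 without IgG library C or any input library (0.0528 to 0.0641), and for Psmg4 without IgG library B or C, any input library or any p-UPF1 library (0.0550 to 0.2036). The count of lower genes fell to 23 when libraries were scaled by their totals alone, a setting that moved the median of all genes from -0.10 to 0.01. It fell to 24 with TMM referred to an input or to an IgG library and to 25 with only the libraries of IgG and input fitted, where that median was 0.0045 to 0.0050, and to 26 without the low-count filter, where it was -0.05.

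The 3′ UTRs of most proteasome mRNAs were shorter than the median of all tested genes. The median RefSeq 3′ UTR of the 48 tested genes was 205.5 bases, from 45 for Psme2 to 2572 for Psmf1, beside 1016 bases for 11886 tested genes with one. Across the 48 genes the log2 difference over IgG followed the logarithm of the 3′ UTR length with Pearson r = 0.64 and Spearman rho = 0.58, and without Psmf1 with r = 0.56 and rho = 0.55. Across the 11886 genes the values were 0.37 and 0.36. The length of the whole mRNA gave r = 0.54 and rho = 0.59 among the 48 genes, so by rank it followed the difference as closely as the 3′ UTR did. Over input, mRNA length gave r = 0.56 and rho = 0.59, where the 3′ UTR gave r = 0.57 and rho = 0.52. For coding length the values over IgG were 0.13 and 0.23, and for exon number 0.08 and 0.20. These are correlations across genes, which share libraries and are not independent replicates, and they are given as a description. With GENCODE M21 transcripts in place of RefSeq the correlation with 3′ UTR length was r = 0.53 and rho = 0.46.

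**Figure D4:**
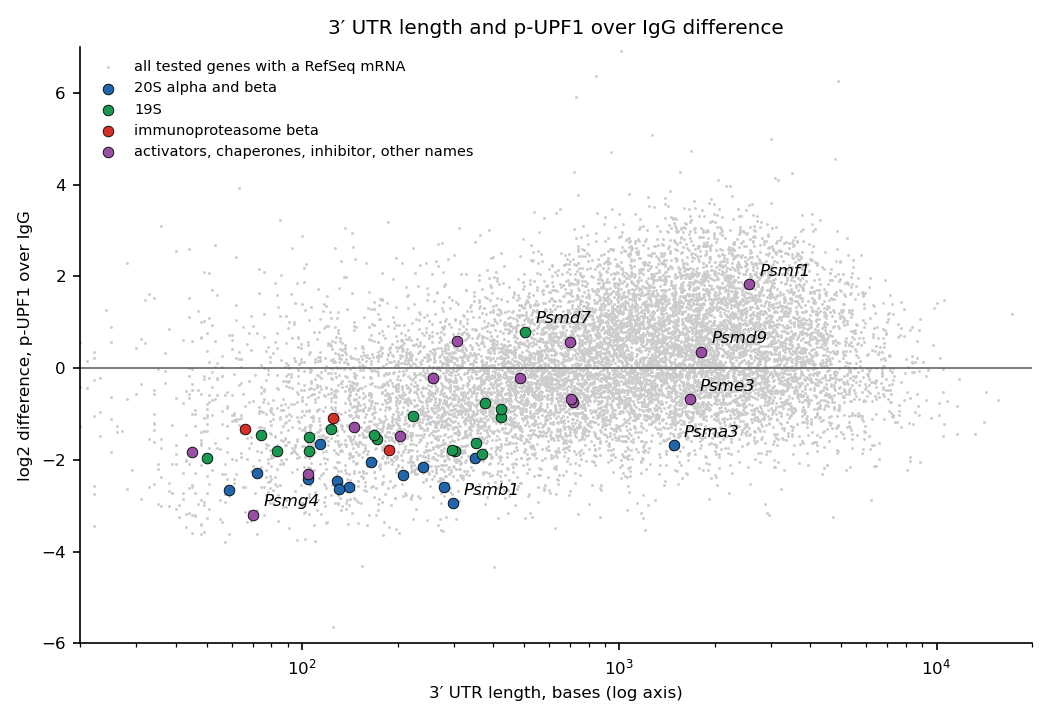
RefSeq 3′ UTR length in bases (log axis) against the log2 difference of p-UPF1 over IgG; grey points are tested genes with a RefSeq mRNA (23 lie outside the plotted range) and coloured points are the 48 tested proteasome genes by group. Most proteasome genes sit at the lower left, and Psmf1, with 2572 bases, at the upper right.

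Read by length class, the 27 proteasome genes with a 3′ UTR under 250 bases had a median log2 difference over IgG of -1.81, from -3.19 to -1.05, while all 1748 tested genes of that class had a median of -0.93. From 250 to 500 bases, 13 proteasome genes had a median of -1.62 and 1697 genes one of -0.53. From 500 to 1000 bases the 4 proteasome genes, Psmd7, Psme4, Psmd10 and Psme3ip1, had a median of -0.05 and 2435 genes one of 0.06. Psma3, Psme3 and Psmd9 have 3′ UTRs of 1000 to 2000 bases and lay at -1.68, -0.68 and 0.36, where 2981 genes had a median of 0.44. In these 4 classes the median of the proteasome genes lay below that of all genes. In the longest class, 2000 bases and over, Psmf1 is the only proteasome gene and lay above, at 1.82 where 3025 genes had a median of 0.39. These differences were not tested. In the catalytic pairs Psmb8 has a longer 3′ UTR than its counterpart, and Psmb9 and Psmb10 have shorter ones. By whole mRNA, Psmb8 (1223 bases against 871) and Psmb10 (1270 against 969) are longer and Psmb9 (806 against 1036) is shorter. Whether either length bears on the ratios was not tested.

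Other annotated features linked to NMD were compared with all tested genes in the same way. An intron in the 3′ UTR was annotated for Psmd1 and Psme4, 4.17% of the 48 genes and 3.81% of all tested genes with a RefSeq mRNA, and both were lower in p-UPF1 libraries. In the GENCODE M21 transcripts the last exon junction lies 7 bases after the stop codon in Psmd1 and 4 bases after it in Psme4, closer than the distance at which a downstream junction is known to mark an mRNA for NMD. An AUG before the start codon was present in the 5′ UTR of 11 of the 48 genes (22.9%) and of 48.5% of all; Psmb10 had 6 and Psmb8 had 2. GENCODE M21 lists at least 1 transcript of the NMD class for 16 of the 48 genes (33.3%) and for 26.6% of all tested genes. The 16 genes had a median log2 difference over IgG of -1.45, and the other 32 one of -1.79. Psmd11, with 7 such transcripts, lay at -1.08 (SE 0.04). Over all genes the medians with and without such a transcript were 0.17 and -0.11. The counts are per gene, so transcripts of the NMD class were not measured apart from the others.

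Genes that work with the proteasome were taken from a list of 29, of which 27 were tested. Over IgG, 6 were higher, 20 were lower and 1, the ubiquitin ligase Ube3c, was not called, with a median of -1.10, where 40.4% of all tested genes were higher and 42.2% lower. Over input, 7 were higher and 20 lower, beside 40.8% and 42.6% of all tested genes. Nfe2l1, the transcription factor that raises proteasome gene expression when proteasomes are inhibited, had group means of 386 CPM (input), 328 CPM (IgG) and 1385 CPM (p-UPF1), a log2 difference of 2.08 (SE 0.04) over IgG and 1.84 (SE 0.04) over input. Ddi2, the protease that cleaves Nfe2l1, read 33.2, 35.5 and 30.2 CPM in input, 34.9, 33.9 and 37.0 in IgG and 193, 196 and 201 in p-UPF1 libraries. Its log2 difference was 2.48 (SE 0.06, edgeR adjusted p = 3.66e-16) over IgG and 2.58 (SE 0.06) over input. The ATPase Vcp, which helps extract Nfe2l1 from the endoplasmic reticulum, lay at -0.91 (SE 0.07) over IgG, while its cofactors Nploc4 at 1.89 (SE 0.05) and Ufd1 at 1.09 (SE 0.06) were higher.

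Ddi2 and Zfand2a, 2 of the 27 tested genes of this list, met the bound criterion, which 6.25% of all tested genes met. Zfand2a, an arsenite-induced zinc finger protein that associates with the proteasome, read 19.1, 19.8 and 18.6 CPM in input, 26.1, 27.5 and 27.7 in IgG and 140, 152 and 144 in p-UPF1 libraries, a log2 difference of 2.42 (SE 0.05) over IgG and 2.92 (SE 0.05) over input. Ubqln4, a shuttle protein, was higher by 0.89 (SE 0.05) over IgG. The ubiquitin fusion gene Rps27a lay at -2.49 (SE 0.05), and the polyubiquitin gene Ubb at -2.58 (SE 0.08). Sem1, the small lid subunit that does not carry a Psm symbol, read 115, 121 and 117 CPM in input, 90.3, 87.0 and 90.3 in IgG and 10.4, 10.4 and 10.3 in p-UPF1 libraries, a log2 difference of -3.10 (SE 0.05). The core maturation factor Pomp lay at -1.21 (SE 0.05), the ubiquitin receptor Adrm1 at -1.50 (SE 0.05), and the proteasome-bound deubiquitinases Usp14 and Uchl5 at -1.28 (SE 0.06) and -1.29 (SE 0.05). Of the remaining lower genes, Ubqln1, Ubqln2, Rad23b, Nfe2l2, Ngly1, Akirin2, Ecpas, Txnl1, Zfand5 and Uba1 ran from -2.21 for Txnl1 to -0.24 for Ubqln1.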

How the data were processed

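RIP-seq libraries of input, normal rabbit IgG and p-UPF1 RNA (3 each) were analysed. The deposited table holds unscaled counts of reads for each gene, which the authors made with cutadapt, HISAT2 (mm10) and featureCounts, per the labels; versions are not given in the sources used here. A directional kit was used, and strand use in counting is not stated for RIP-seq. Columns carry letters while labels carry numbers, so columns were assigned to groups only. Symbols, positions and mRNA lengths came from RefSeq on GRCm38.

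Counts were filtered (filterByExpr, minimum count 10, minimum total 15), scaled by TMM and fitted over the 9 libraries with 6 residual degrees of freedom (edgeR 4.0.16, R 4.3.3). Each contrast was tested by the two-sided quasi-likelihood test with Benjamini-Hochberg adjustment over 13129 genes. The fit was tested on simulated data. CPM are TMM-scaled. DESeq2 1.42.0 and limma 3.58.1 were alternatives. Reads carry no molecular identifiers. Members and lists were chosen with earlier results of these data known. Genes named are catalytic subunits, the 5 extremes of each contrast, group extremes, filtered genes, genes against their group's median, all activators, chaperones and inhibitor, and partners, some of which are not reported here.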

Additional observations from a re-analysis of the deposited data

How the results depend on the processing

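The counts of proteasome genes higher or lower in p-UPF1 than in IgG or input stayed within 1.5 times their reported values under all 21 alternatives, which changed the scaling, the tool, the filter, the prior count, the threshold or the groups fitted, left out 1 library, or added the column letter as a block (chosen after seeing the data), and the count of p-UPF1-bound proteasome genes stayed at 0. Of the calls of single genes over IgG, 1004 kept their side of the threshold and 4, all of Psmc3ip, became significant; over input 992 kept it and 16, of Psmd9 and Psmc3ip, lost it. The contrast of IgG with input depended more on the setting: 892 calls of single genes were kept, 97 lost and 19 gained. The number of proteasome genes higher in IgG was 1, and became 4 with library size alone, 3 with upper-quartile factors, 2 with DESeq2 size factors, 4 with TMM referred to an input or to an IgG library, 2 with DESeq2, 2 without the low-count filter, 4 with only the 2 groups compared and 0 at an adjusted p under 0.01; leaving out 1 library gave 0 to 2. The number lower was 36 and became 23 with library size alone, 24 with either TMM reference, 25 with only the 2 groups compared, 26 without the low-count filter and 29 with upper-quartile factors; under the others it was 30 to 36. The cause was not tested. Library size alone moved the all-gene median over IgG from -0.03 to -0.19, and upper-quartile factors to -0.17; the proteasome median was -1.80 and -1.77 there. No direction of a called gene reversed. The columns carry letters that are in no label, and per the methods input and precipitates share a lysate. A fit with the column letter as a replicate block left 4 residual degrees of freedom and gave the reported counts again: 5 higher and 42 lower over IgG, 5 and 43 over input, 1 and 36 for IgG over input, and 0 bound. Deviations of same-letter libraries from their group means correlated at -0.005 to 0.054. Libraries A and B correlated best with their own letter in every contrast, while library C did not always. Whether the letters pair libraries was left undecided, and the reported fit did not pair them. No paired analysis was possible with the labels' replicate numbers because the columns do not carry them. Genes near 1 CPM, such as Psmg4 in p-UPF1 libraries, rest on few reads.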

Other observations

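Psma7 read highest in library A of both precipitates, at 280 CPM (IgG) and 94.7 CPM (p-UPF1), and lowest in library A of input, at 233 CPM. The letters come from the column names and are in no label.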
